A study of Mus musculus with 1920 samples.

Results

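Genes of sterol and fatty acid synthesis were followed in individually sorted microglia, the tissue macrophages of brain and spinal cord, across 10 groups of mice. The set holds 31 genes, taken by name as those rows of the deposited count table whose Ensembl identifier carries 1 of the listed symbols in the GENCODE vM21 annotation of mouse build GRCm38. All 31 were found among 48709 gene entries. By role they are 5 regulators, 7 genes of the mevalonate pathway, 11 genes that make squalene and the sterol ring, 1 sterol carrier and 7 genes of fatty acid synthesis.

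Cells build cholesterol from acetyl-CoA through mevalonate, isoprenoids, squalene and a series of ring-modifying steps. Fatty acids are built from the same precursor by carboxylation, chain assembly, elongation and desaturation. Both routes are controlled by the SREBP transcription factors, which are held in the endoplasmic reticulum with SCAP and INSIG proteins while sterols are plentiful. Microglia also take up lipid from myelin debris, and LXR-responsive transporters such as Abca1 and Abcg1 export cholesterol from them.

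All mice were of the outbred CD1 strain and aged 16 weeks, with no transgene or targeted allele named in the labels. The 6 untreated groups were spinal cord, corpus callosum, cerebellum, the facial nucleus of the brainstem, hippocampus and cortex. Treated mice gave cells from the facial nucleus 3 or 14 days after facial nerve axotomy, a cut of the nerve whose motor neuron bodies lie in that nucleus, or from corpus callosum at a demyelination or remyelination stage of cuprizone treatment. Cuprizone is a copper chelator that kills oligodendrocytes. The tissue label of the axotomy cells reads facial nerve and their source label facial nucleus. Cells were sorted 1 per well with antibodies to CD11b, CD45, Ly6C, Ly6G and CD206. The labels give 4 replicates in each of the 10 groups, while the design text speaks of fewer mice in some conditions and of untreated regions taken from the same animals. Where replicates of 1 group shared a mouse, the errors given here are too small.

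Smart-seq2 libraries, which carry no molecular identifiers, passed the filters for 1644 of 1900 wells labelled as cells and for 0 of 20 negative wells. Kept cells numbered 129 to 181 per group. Their counts were summed per mouse and group into 40 sums of 5298853 to 19964472 counts. Levels are counts per 1000000 counts (CPM) of these sums with TMM scaling, given as mean ± SD over n = 4 mice. Each injured group lay on another 384-well plate than its untreated region, so plate and treatment cannot be told apart in those comparisons. Day 3 shared a plate with day 14, demyelination with remyelination, cortex with hippocampus, cerebellum with facial nucleus, and corpus callosum with spinal cord. All 12 microglia markers had counts in each of the injured groups, corpus callosum, facial nucleus and spinal cord, and their summed level there was between 30677 and 55867 CPM in every mouse. Of the 20 negative wells, 8 held a read of any of the 31 genes, and none held reads of more than 2 of them.

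These are low-abundance transcripts in single cells, and a mouse's level often rests on few cells. Per kilobase of exon, the gene with the highest level over the 6 untreated regions was Ebp, the sterol isomerase, at 42.4 ± 7.11 CPM per kb (SD over 6 regions). Acly, which makes cytosolic acetyl-CoA from citrate, followed at 29.1 ± 6.28 CPM per kb. The delta-5 desaturase Fads1 (23.5 ± 5.05) and the elongase Elovl5 (20.7 ± 7.25 CPM per kb) came next. After them stood the stearoyl-CoA desaturase Scd2 (18.5 ± 6.81) and the SREBP anchor Insig2 (17.2 ± 7.74 CPM per kb). From Acly to Insig2, neighbours in this order did not differ beyond the larger of their SDs over regions. At the other end stood the carboxylase Acaca at 0.545 ± 0.204, the lanosterol synthase Lss at 0.526 ± 0.568 and the isomerase Idi1 at 0.158 ± 0.189 CPM per kb. Thus 5 of the 6 highest levels per kb belonged to fatty acid genes or a regulator, and 1 to the sterol ring. Idi1 had a read in 2 to 8 cells of each of the 6 regions, and it fell below the count filter of the region and cuprizone fits.

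**Figure D1:**
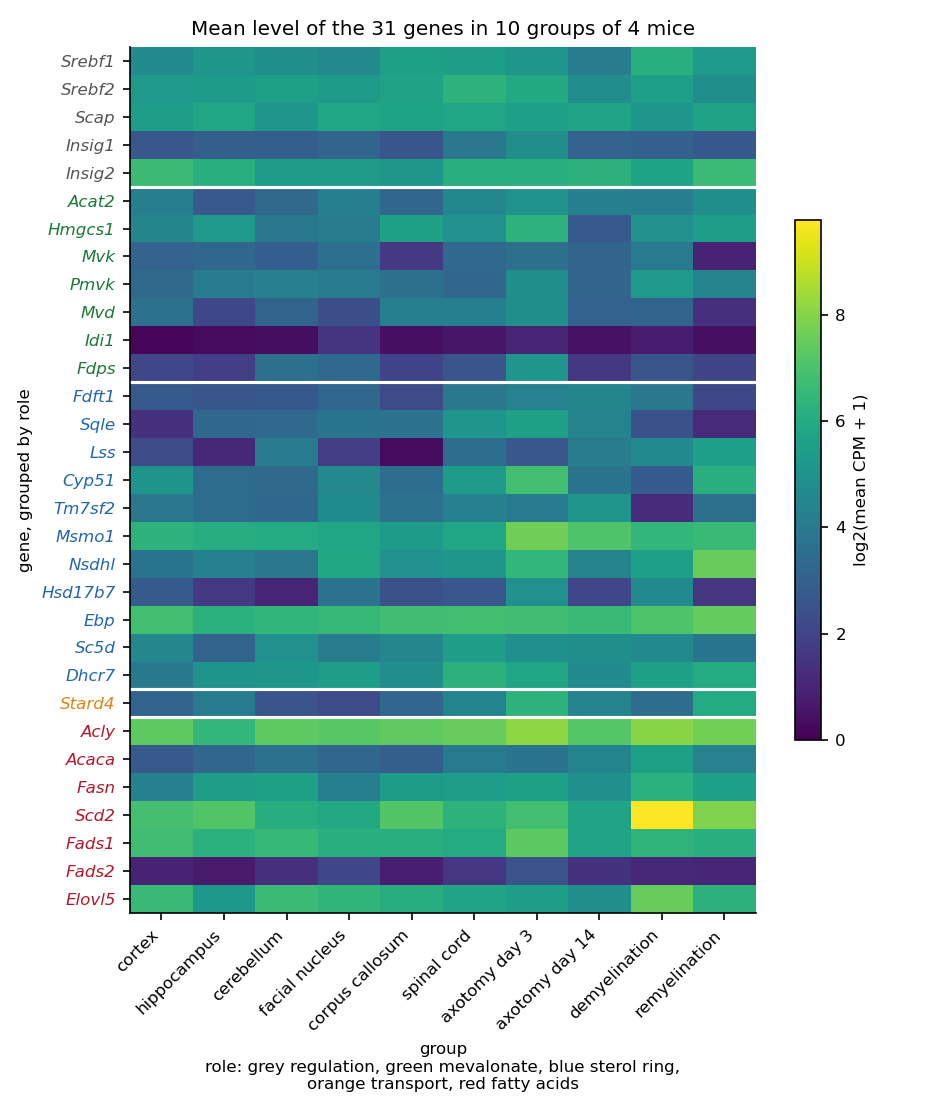
Mean level of each of the 31 genes (rows, grouped by role) in each of the 10 groups (columns), as log2(mean CPM + 1) of 4 mice. Scd2 in demyelination is the brightest cell, at a mean of 887 CPM, and Idi1 and Fads2 are dark throughout.

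Of the 31 genes, 14 overlap another gene entry, and the protocol does not mark strand, so reads in shared exons cannot be told apart from those of the partner. Among the genes named below this touches Lss (an antisense RNA), Cyp51 (Akap9), Mvd (Gm20388), Fdps (Gm43738), Tm7sf2 (Vps51), Acaca (Gm11437) and, with small or predicted RNAs, Scd2, Fads1, Acly and Insig2.

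Across the 6 untreated regions, no gene of the set was called by the edgeR quasi-likelihood test of any difference (adjusted p under 0.05). Regions outside a pair named above lay on different plates, so this test and the levels in this paragraph mix region with plate. Of all 22907 genes tested, 0.1% were called. DESeq2 also called 0, and 1 of the 30 tested had an unadjusted p under 0.05, against 10.3% of all genes. That gene was Insig2 (adjusted p = 0.405), which retains SREBP in the endoplasmic reticulum. Its level was 104 ± 48.5 CPM in cortex, 70.9 ± 24.4 in hippocampus, 68.7 ± 16.4 in spinal cord, 40.5 ± 17 in facial nucleus, 38.9 ± 18.4 in cerebellum and 35 ± 7.53 in corpus callosum (SD, n = 4 each). The other genes with the lowest p in that test were the desaturases Sc5d and Scd2 and the last reductase of the pathway, Dhcr7, with adjusted p from 0.563 to 0.609. By contrast, 2 of 26 neighbouring genes of the pathway were called, the cholesterol exporters Abca1 (adjusted p = 0.0327) and Abcg1 (adjusted p = 0.0057). Abca1 ranged from 64.8 ± 37.0 CPM in facial nucleus to 280 ± 73.5 in cerebellum, and Abcg1 from 95.9 ± 31.9 in spinal cord to 391 ± 31.2 in cortex.

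Spinal cord was set against corpus callosum, both on the same plate. Fitted fold changes were above 0 for 24 of the 30 tested genes, against 48.1% of all genes, with a median log2 fold change of 0.68 against -0.04 over all genes. All 11 sterol ring genes had a fitted level higher in spinal cord, as did 4 of 5 regulators, 4 of 6 mevalonate genes and 4 of 7 fatty acid genes. None of these differences was called by edgeR (0% of all genes in either direction) or by DESeq2 (371 of all 22907 genes). An unadjusted p under 0.05 was found for 1 member, on the higher side (2.85% of all genes). On the lower side there were 0 members, against 3.72% of all genes. Without the fourth corpus callosum replicate the median was 0.25, and in the fit with a replicate block 0.36.

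In single genes, Insig2 stood at 79.3, 64.0, 47.6 and 83.9 CPM in the 4 spinal cord mice and at 44.3, 26.3, 32.8 and 36.6 in corpus callosum. Dhcr7 stood at 110, 80.8, 44.7 and 76.3 CPM in spinal cord and at 22.3, 36.7, 16.3 and 33.4 in corpus callosum. For both genes every spinal cord mouse lay above every corpus callosum mouse, as it did for 1.19% of all genes. Scd2 went the other way, at 91.2, 70.2, 87.2 and 66.2 CPM in spinal cord and 181, 144, 150 and 97.9 in corpus callosum, without overlap (1.58% of all genes lay fully below). The log2 differences were 1.00 ± 0.47 (SE) for Insig2, 1.54 ± 0.85 for Dhcr7 and -0.84 ± 0.56 for Scd2, with edgeR adjusted p of 0.744, 0.856 and 1. Lss was at 30.5, 0, 11.3 and 0.65 CPM in spinal cord and was read in 3 corpus callosum cells, in 1 mouse, so its fitted log2 difference of 5.38 ± 2.72 (adjusted p = 0.788) rests on very few cells. Beside these values, the summed level of the 8 oligodendrocyte markers was 905 ± 486 CPM in spinal cord (507 to 1517) and 203 ± 136 in corpus callosum (111 to 401).

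Cerebellum against facial nucleus and cortex against hippocampus gave smaller shifts of the set. In cerebellum 15 of 30 genes had a fitted level above facial nucleus and 15 below (45.4% of all genes above 0), with a median log2 difference of 0.02 against -0.09 over all genes. No member was called by edgeR (0% of all genes higher and 0.00437% lower) or by DESeq2 (788 of all 22907 genes). Likewise 0 members had an unadjusted p under 0.05 (3.68% of all genes on the higher side and 7.57% on the lower). Fasn, the fatty acid synthase, was at 72.0, 63.4, 28.2 and 28.6 CPM in cerebellum and 24.0, 16.8, 2.94 and 27.0 in facial nucleus, with every cerebellum mouse above every facial nucleus mouse (1.05% of all genes, with 0 members and 1.76% of all genes fully below). Its log2 difference was 1.42 ± 0.77 (SE; edgeR adjusted p = 0.529). The sterol ring genes Nsdhl, Hsd17b7 and Tm7sf2 had fitted log2 differences of -2.07 ± 1.27, -3.58 ± 2.36 and -1.64 ± 1.27 with overlapping mice. In cortex 16 of 30 lay above hippocampus (45.4% of all genes), with a median of 0.22 against -0.07. EdgeR called 0 members (0% of all genes in either direction), as did DESeq2 (767 of all 22907 genes). The median turned to -0.11 without cortex replicate 2, -0.09 without cortex replicate 3 and -0.07 without hippocampus replicate 4, and it was 0.03 in a fit of these groups alone. Here 1 member had an unadjusted p under 0.05, Elovl5, at 211, 44.6, 65.4 and 63.3 CPM in cortex and 5.24, 17.6, 102 and 20.6 in hippocampus. On the lower side there were 0, against 6.27% of all genes, and 4% on the higher side. The groups overlapped, as for all members (1.2% of all genes fully above and 1.13% below), and the log2 difference was 1.41 ± 0.63 (adjusted p = 0.478). Acly (0.88 ± 0.43), Sc5d (1.54 ± 0.81) and the squalene epoxidase Sqle (-2.38 ± 1.43) had adjusted p from 0.491 to 0.639.

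After facial nerve axotomy, most fitted levels of the set lay above untreated facial nucleus at day 3 and below day 3 at day 14, although no single gene passed the edgeR test over all genes. At day 3, 27 of 31 genes had a fitted level above untreated facial nucleus, against 51.5% of all 19319 genes tested. The median log2 fold change was 0.89 against 0.04 over all genes. By role, 4 of 5 regulators, 6 of 7 mevalonate genes, 10 of 11 sterol ring genes, the carrier Stard4 and 6 of 7 fatty acid genes were on the higher side. EdgeR called 0 members (0.14% of all genes were called higher and 0.00518% lower), and DESeq2 called 0, against 347 of all 19319 genes. An unadjusted p under 0.05 with a higher level was found for 6 members, 19.4% of them, against 5.36% of all genes, and with a lower level for 0, against 2.97%.

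**Figure D2:**
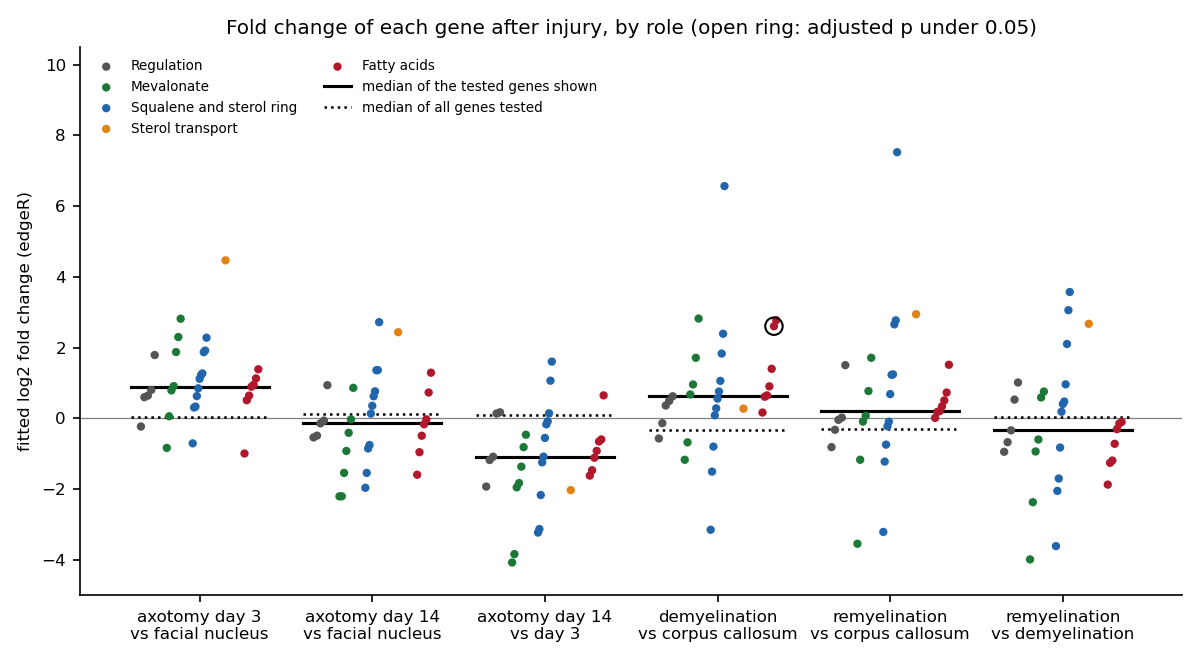
Fitted log2 fold change (vertical axis) of each tested gene in the 6 injury comparisons, coloured by role, with the median of the set (solid line) and of all genes tested (dotted line). The set's median lies at 0.89 at day 3 against facial nucleus and at -1.09 at day 14 against day 3, and the open ring marks Scd2, the 1 gene called.

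The methyl sterol oxidase gene Msmo1 had the lowest p. Its level was 110, 284, 156 and 252 CPM in the 4 day 3 mice and 70.9, 47.1, 6.59 and 88.3 CPM in the 4 untreated facial nucleus mice. Every day 3 mouse lay above every untreated one, and the log2 fold change was 1.91 ± 0.69 (SE; edgeR adjusted p = 0.442). Fads1 stood at 137, 119, 204 and 176 CPM at day 3 and at 66.5, 94.0, 67.2 and 65.5 in facial nucleus, again without overlap, a log2 fold change of 1.13 ± 0.48 (adjusted p = 0.499). The synthase gene Hmgcs1 of the mevalonate pathway was the remaining gene without overlap, at 29.6, 74.0, 165 and 51.7 CPM against 20.4, 22.4, 11.05 and 11.9. Such separation held for 3 of 31 members and for 3.1% of all genes. Acly was at 262, 251, 214 and 391 CPM at day 3 and at 91.5, 128, 246 and 141 in facial nucleus, where 1 untreated mouse lay among the day 3 mice (log2 fold change 0.89 ± 0.36, adjusted p = 0.464). Stard4, which carries cholesterol between membranes, was at 24.3, 49.5, 239 and 7.14 CPM at day 3 against 0.29, 2.30, 12.2 and 0 (4.47 ± 1.63, adjusted p = 0.447). Its 4 day 3 mice differed widely from each other, and its reads came from 23 of 168 cells.

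By day 14, measured on the same plate as day 3, 25 of 31 genes had a fitted level below day 3 and 6 above, against 53.6% of all genes above 0. The median log2 difference was -1.09 against 0.10 over all genes. All 7 mevalonate genes were on the lower side, with a median of -1.83, as were 8 of 11 sterol ring genes, 6 of 7 fatty acid genes, 3 of 5 regulators and Stard4. EdgeR called 0 members (0.0259% of all genes were called lower and 0% higher), with 6 members at an unadjusted p under 0.05, all lower, or 19.4% against 3.76% of all genes (2.84% higher, with 0 members). DESeq2 called 2, Hmgcs1 (adjusted p = 0.0161) and Fdps (adjusted p = 0.0465), among 234 of all 19319 genes. Of the 31, 5 had every day 14 mouse below every day 3 mouse, or 16.1% against 2.32% of all genes (2.28% fully above, with 0 members): Hmgcs1, Mvd, Fdps, Cyp51 and Fads1.

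Hmgcs1, which condenses acetyl-CoA units towards mevalonate, stood at 0.30, 20.0, 1.00 and 1.39 CPM at day 14, against 29.6 to 165 at day 3. Of its day 14 reads, 73.8% were in 1 cell, and of its day 3 reads 32.4%. The log2 difference was -3.84 ± 1.08 (SE; edgeR adjusted p = 0.378). Fdps, the farnesyl diphosphate synthase, stood at 29.4, 64.6, 27.2 and 11.7 CPM at day 3 and 2.22, 2.88, 0.11 and 2.69 at day 14, a log2 difference of -4.08 ± 1.43 (adjusted p = 0.541). Of the Fdps reads at day 3, 37.4% were in 1 cell. In untreated facial nucleus Fdps was at 9.15 ± 6.22 CPM, between the 2 time points. Mvd, the decarboxylase that ends the mevalonate route, was at 25.3, 39.9, 38.1 and 11.6 CPM at day 3 and 10.1, 10.9, 8.69 and 0.41 at day 14. Cyp51, the lanosterol demethylase, was at 35.9, 136, 182 and 92.2 CPM at day 3 and 9.31, 11.5, 20.3 and 10.0 at day 14. Its untreated mice were at 0, 34.6, 0 and 58.3. Fads1 was at 15.7, 58.2, 98.8 and 35.4 CPM at day 14, a log2 difference from day 3 of -1.62 ± 0.48 (adjusted p = 0.44). Nsdhl, the sterol dehydrogenase, was at 168, 107, 15.2 and 62.0 CPM at day 3 and 16.3, 28.1, 13.8 and 20.7 at day 14, with overlap, a log2 difference of -2.17 ± 0.78 (adjusted p = 0.542).

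**Figure D3:**
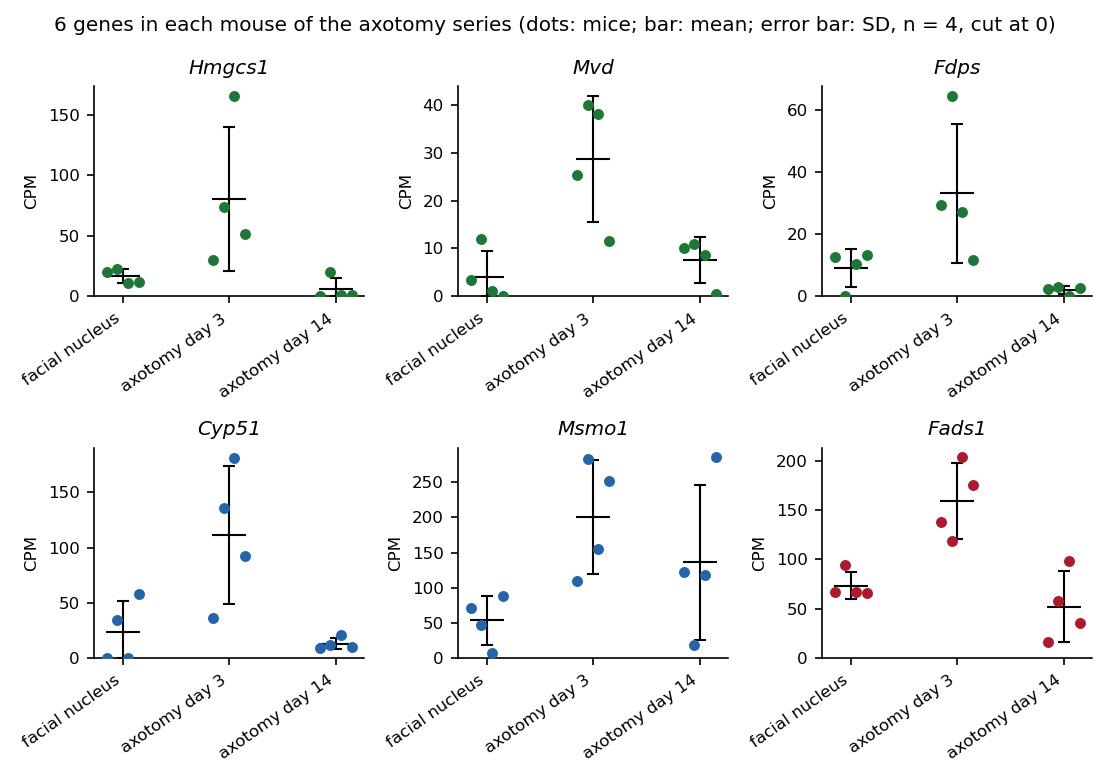
Level in CPM (vertical axes, linear, from 0) of 6 genes in each of 4 mice (dots) of untreated facial nucleus and of days 3 and 14 after axotomy, with mean and SD (error bars cut at 0). Day 3 is the highest group mean in all 6 panels, and Msmo1 is the panel where a day 14 mouse, at 286 CPM, lies above all day 3 mice.

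The upstream sequence of the genes whose day 14 mice all lay below day 3 is shown for the 3 that have an entry in the RefSeq promoter table of build GRCm38.p6 (Hmgcs1, Mvd and Cyp51). Fdps and Fads1 had no entry. Each run holds those bases of the 250 before the RefSeq start that also precede the start of the GENCODE gene, 5′ to 3′ on the gene's strand. Capitals mark CCAAT on either strand, the box bound by NF-Y, a partner of SREBP, and TCACNCCAC on either strand, a form of the sterol regulatory element. The windows are chr13:119690101-119690350 on the plus strand for Hmgcs1, chr8:122443423-122443672 on the minus strand for Mvd and chr5:4104747-4104947 on the minus strand for Cyp51, and no annotated exon lies in them.
Hmgcs1: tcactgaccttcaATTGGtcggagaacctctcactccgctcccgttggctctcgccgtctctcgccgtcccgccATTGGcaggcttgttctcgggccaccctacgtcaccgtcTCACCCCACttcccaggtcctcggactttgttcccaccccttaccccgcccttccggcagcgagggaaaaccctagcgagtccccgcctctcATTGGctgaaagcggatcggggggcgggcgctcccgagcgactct
Mvd: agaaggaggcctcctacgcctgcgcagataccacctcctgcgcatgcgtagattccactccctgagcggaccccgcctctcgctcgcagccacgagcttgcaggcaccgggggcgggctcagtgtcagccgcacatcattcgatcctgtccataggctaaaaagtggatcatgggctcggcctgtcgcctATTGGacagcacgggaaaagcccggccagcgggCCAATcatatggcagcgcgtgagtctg
Cyp51: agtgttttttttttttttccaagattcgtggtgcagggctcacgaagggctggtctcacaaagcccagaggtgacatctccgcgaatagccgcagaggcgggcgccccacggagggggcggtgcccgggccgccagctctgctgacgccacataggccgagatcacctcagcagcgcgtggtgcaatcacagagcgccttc

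Hmgcs1 holds 3 matches to CCAAT and 1 to TCACNCCAC, Mvd holds 2 and 0, and the Cyp51 window holds neither, though the full Cyp51 entry has a CCAAT match outside it. Over the full table of entries, which run from 250 bases before to 50 after each start, TCACNCCAC on either strand is in 1.44% of 27025 genes. Among the 25 members with an entry it is in 1, Hmgcs1. CCAAT on either strand is in 84% of those 25 members (21 genes) and in 41.1% of all 27025 genes of the table. The GC box GGGCGG on either strand, not marked above, is likewise in 84% of the 25 members and in 38.2% of all genes. The motifs were matched as letters, which does not show binding. Other forms of the sterol regulatory element were not searched, so a window or gene without a match may still hold one.

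Against untreated facial nucleus, day 14 showed no shared direction. Fitted levels were higher for 12 of 31 genes and lower for 19 (54.7% of all genes above 0), with a median log2 fold change of -0.14 against 0.11 over all genes. EdgeR called 0 members and 0% of all genes in either direction. DESeq2 called 0 members and 181 of all 19319 genes. With an unadjusted p under 0.05 there were 0 members on the higher side (3.72% of all genes) and 1 on the lower side (1.93%). That gene, Elovl5, was at 46.3, 11.99, 19.2 and 34.0 CPM at day 14 and 94.8, 105, 83.9 and 54.4 in facial nucleus, with every day 14 mouse below every untreated one (1.62% of all genes). Its log2 fold change was -1.60 ± 0.58 (SE; adjusted p = 0.629). Of the mevalonate genes 6 of 7 were on the lower side, with a median of -0.93, while 7 of 11 sterol ring genes were on the higher side, with a median of 0.35. Nsdhl (-1.55 ± 0.77), Msmo1 (1.36 ± 0.68) and Insig2 (0.94 ± 0.48) had adjusted p from 0.94 to 0.971.

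Dividing cells differed between the same groups. The summed level of 20 cell cycle genes was 1569 ± 542 CPM at day 3 (985 to 2292), 276 ± 198 in facial nucleus and 210 ± 68.0 at day 14, and Ccna2, the cyclin of DNA replication, was called at day 3 (adjusted p = 0.0337). Cells with a read of Mki67, Top2a, Ccna2, Ube2c or Birc5 made up 66 of 168 at day 3, 35 of 161 in facial nucleus and 35 of 171 at day 14. Without those cells the set's median was 0.63 at day 3 against facial nucleus, with 22 of 30 genes higher, and -0.44 at day 14 against day 3, with 20 of 30 lower. With each cell given equal weight in place of its read depth the medians were 0.48 and -0.63. The share of cells with an Hmgcs1 read, each cell thinned to 20000 reads, was 13.8% ± 7.03 in day 3 cells with such a dividing-cell read and 15.2% ± 7.33 in day 3 cells without (SD over 4 mice). For Fdps the shares were 14.05% ± 3.4 with and 6.88% ± 3.78 without. The median mitochondrial share of counts was 3.09% at day 3, 1.54% at day 14 and 1.06% in facial nucleus, and its part in the differences was not tested. Monocyte, oligodendrocyte and astrocyte marker lists overlapped in level between day 3 and facial nucleus. The 5 neuron markers summed to 131 ± 161 CPM at day 3 and 23.8 ± 18.2 in facial nucleus. Their mice ranged from 35.2 to 371 CPM and from 0.203 to 41.3 CPM, and the part of this difference was not tested.

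Of 26 neighbouring genes of the pathway tested, 0 were called in any of the 3 axotomy comparisons. Of all genes, at most 0.14% were called in 1 direction there. The median log2 fold change of the neighbours at day 3 was 0.03. Abcg1, chosen here after its values were seen, was at 24.1 ± 20.5 CPM at day 3, 97.0 ± 55.7 in facial nucleus and 120 ± 39.2 at day 14. Its log2 fold changes were -1.98 ± 0.66 at day 3 against facial nucleus (edgeR adjusted p = 0.434) and 2.29 ± 0.67 at day 14 against day 3 (adjusted p = 0.426).

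In cuprizone demyelination the desaturase gene Scd2 rose. Scd2 places a double bond in saturated fatty acyl chains and is the stearoyl-CoA desaturase form best known from brain. Its level was 1336, 801, 668 and 743 CPM in the 4 demyelination mice and 181, 144, 150 and 97.9 CPM in the 4 untreated corpus callosum mice, so every demyelination mouse lay far above every untreated one. The log2 fold change was 2.60 ± 0.48 (SE, n = 4 and 4), a 6.08-fold difference, with an edgeR adjusted p of 0.0037. DESeq2 gave 2.36 (adjusted p = 0.00026). Scd2 was the 1 member called of 30 tested, against 3.08% of all 14057 genes called higher and 2.08% lower in this comparison. Leaving out each mouse in turn gave log2 fold changes from 2.38 to 2.74, each with an adjusted p under the threshold.

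The share of cells with an Scd2 read was also higher. With each cell thinned to 20000 reads, 57.2% ± 8.19 of demyelination cells had an Scd2 read, 19.6% ± 7.23 of corpus callosum cells and 20.9% ± 10.0 of remyelination cells (SD over 4 mice). At the deposited depth the shares were 77.2% ± 2.23, 26.6% ± 9.68 and 37.9% ± 15.0. Of the 20 negative wells, 2 had an Scd2 read, at a median of 524.5 gene counts per negative well against 471755 in kept demyelination cells and 201705 in corpus callosum cells. No mouse of another group reached the lowest demyelination mouse. Group means of the other 9 ran from 51.7 ± 33.0 CPM at day 14 after axotomy and 58.5 ± 45.5 in facial nucleus to 138 ± 39.7 in hippocampus, 143 ± 34.2 in corpus callosum and 235 ± 144 in remyelination.

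**Figure D4:**
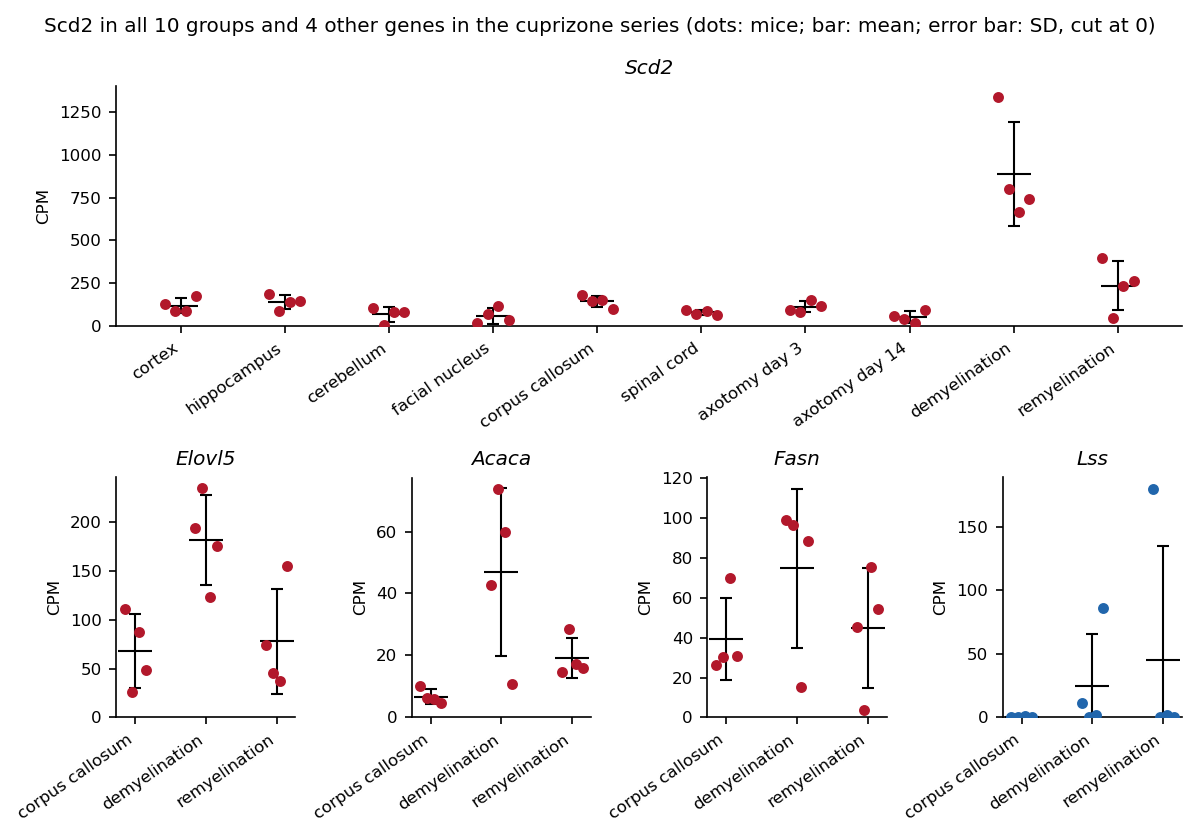
Scd2 level in CPM in each of 4 mice of all 10 groups (upper panel), and Elovl5, Acaca, Fasn and Lss in corpus callosum, demyelination and remyelination (lower panels), with mean and SD (error bars cut at 0). All 4 demyelination mice, at 668 to 1336 CPM for Scd2, lie above every other mouse, while most of the Lss level in remyelination comes from 1 mouse, at 180 CPM.

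No other member was called by edgeR. Fitted levels were higher in demyelination for 23 of 30 genes (42.4% of all genes above 0), with a median log2 fold change of 0.62 against -0.33 over all genes. All 7 fatty acid genes were on the higher side, with a median of 0.90, beside 8 of 11 sterol ring genes, 4 of 6 mevalonate genes and 3 of 5 regulators. An unadjusted p under 0.05 with a higher level was found for 4 members, or 13.3% against 7.9% of all genes, and with a lower level for 0, against 12.4%. Acaca, which commits acetyl-CoA to fatty acid synthesis, was at 42.7, 73.8, 59.9 and 10.9 CPM in demyelination and 10.1, 6.30, 5.96 and 4.50 in corpus callosum (2.77 ± 1.04, edgeR adjusted p = 0.121; DESeq2 adjusted p = 0.00155). Elovl5 was at 193, 235, 124 and 175 CPM against 111, 25.5, 86.9 and 48.6 (1.40 ± 0.57, adjusted p = 0.157). For both genes every demyelination mouse lay above every untreated one, as for Scd2 and the kinase Pmvk, or 4 of 30 members, 13.3%, against 8.88% of all genes, and 0 members lay fully below, against 14.5%. Fasn was at 99.2, 96.3, 15.0 and 88.5 CPM in demyelination and 26.3, 30.3, 69.9 and 31 in corpus callosum, with 3 demyelination mice above all untreated mice and 1, at 15.0, below all of them.

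Lss had the largest fitted log2 fold change, 6.57 ± 2.75 (adjusted p = 0.173), from 11.1, 0.51, 1.53 and 85.9 CPM in demyelination against 0, 0, 0.99 and 0 in corpus callosum. In demyelination 5 of 161 cells held an Lss read, and 1 cell held 88.4% of its reads. DESeq2 called 2 members in this comparison, Scd2 and Acaca, among 1945 of all 14057 genes.

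Markers of other cells moved with these differences. The summed level of 6 monocyte markers was 1226 ± 670 CPM in demyelination (564 to 2119) and 80.2 ± 66.6 in corpus callosum (10.4 to 170). Nearly all of it was Fn1, the fibronectin gene, at 1216 ± 657 CPM against 5.46 ± 4.96. Of the other markers in that list, Ly6c2 was at 0 in all 4 demyelination mice. Ccr2 was at 7.75 ± 14 CPM in demyelination and 22.4 ± 19.2 in corpus callosum. Which kind of cell the Fn1 reads came from was not tested. Of the 6 monocyte markers, 2 were at 0 in demyelination. The 8 oligodendrocyte markers summed to 379 ± 292 CPM in demyelination (163 to 810) and 203 ± 136 in corpus callosum, and the 20 cell cycle genes to 1131 ± 305 against 448 ± 215. The 5 endothelial markers summed to 166 ± 84.0 CPM in demyelination (73.7 to 264) and 32.5 ± 18.6 in corpus callosum (16.1 to 57.6), with 1 of the 5 at 0 in demyelination. Of the 12 microglia markers, 6 were called lower in demyelination and 1 higher, against 2.08% of all genes called lower and 3.08% higher. The part of these differences in the Scd2 result was not tested, except where a value follows.

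Where cells with particular reads were left out, the Scd2 value was recomputed. Without the cells with a read of Ccr2, Ly6c2 or Fn1, 55 of 161 demyelination cells were left, with as few as 9 in a mouse, and the Scd2 log2 fold change was 2.12 but was no longer called (edgeR adjusted p = 0.108). In that fit 11 of 28 members had a fitted level higher in demyelination and 17 lower, and the median was -0.26, against -0.40 over all genes. Without the cells with a read of Ccr2 or Ly6c2 alone, an alternative chosen after seeing the data, 151 of 161 demyelination cells were left. Few cells were left out, so this fit could differ little from the main one. In it the Scd2 log2 fold change was 2.47 (edgeR adjusted p = 0.00925), 22 of 30 members were on the higher side and the median was 0.65. In thinned cells an Scd2 read was found in 68.2% ± 7.30 of the 103 demyelination cells with an Fn1 read and in 34.8% ± 14.9 of the 58 without one, at median depths of 472529 and 466672 counts. In corpus callosum cells without an Fn1 read the share was 20.4% ± 6.59 (161 cells). Without cells with a dividing-cell read the Scd2 log2 fold change was 2.38, and it was called.

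Some genes next to the pathway also rose in demyelination. Of a list of 26 neighbours 22 were tested, and 5 were called, all higher, against 3.08% of all genes called higher and 2.08% lower. Abcg1 was at 1051 ± 150 CPM against 208 ± 47.7 (log2 fold change 2.31 ± 0.27, edgeR adjusted p = 5.3e-05), and Abca1 at 762 ± 207 against 205 ± 45.4 (1.86 ± 0.32). Soat1, which esterifies cholesterol for storage, was at 463 ± 80.2 against 91.6 ± 75.4 (adjusted p = 0.0281). Hacd2, a dehydratase of fatty acid elongation, was at 212 ± 61.2 against 33.8 ± 15.2 (adjusted p = 0.0023), and the reductase Cyb5r3 at 251 ± 12 against 65.2 ± 18.7 (adjusted p = 0.0453). Abcg1, Abca1, Soat1 and Hacd2 were called in remyelination as well, where 2.51% of all genes were called higher and 0.605% lower.

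Remyelination cells were also set against untreated corpus callosum. Of the remyelination wells 67.9% of remyelination wells passed the filters, and a kept cell had a median of 1517 detected genes, against 2137 in demyelination and 2926 in corpus callosum. Fitted levels were above corpus callosum for 19 of 30 genes (42.6% of all genes), with a median log2 fold change of 0.19 against -0.31 over all genes. EdgeR called 0 members, against 2.51% of all genes called higher and 0.605% lower. DESeq2 called 0, against 1589 of all 14057 genes. With an unadjusted p under 0.05 there were 2 members, both higher (7.82% of all genes), and 0 lower (11%). Without corpus callosum replicate 2 the median was 0.69, and with upper-quartile scaling 16 of 30 were higher, with a median of 0.03. All 7 fatty acid genes were again on the higher side, with a median of 0.34. Scd2 was at 399, 48.0, 231 and 261 CPM, so 1 of the 4 mice lay below every untreated mouse and 3 above them (log2 fold change 0.73 ± 0.45, edgeR adjusted p = 0.448). Acaca, at 14.8, 28.6, 17.2 and 16.0 CPM, was above all untreated mice (5.53% of all genes), and Mvd, at 0, 0, 6.10 and 0.10, was below them (12.2% of all genes). These 2 genes fall outside the naming rule and were chosen after their values were seen.

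Among the genes with the lowest p in remyelination, Lss was at 180, 0, 1.62 and 0 CPM, and 1 cell held 98.7% of its reads. Nsdhl was at 515, 1.5, 87.8 and 129 CPM, with 62.1% of its reads in 1 cell, against 30.1 ± 23.7 in corpus callosum (2.65 ± 1.12, adjusted p = 0.196). Insig2 was at 13.9, 39.8, 184 and 168 CPM (1.5 ± 0.89, adjusted p = 0.416).

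Remyelination and demyelination shared a plate, so their difference does not cross plates. Scd2 was lower in all 4 remyelination mice than in any demyelination mouse (2.76% of all genes), with a log2 difference of -1.88 ± 0.46 (SE). Its unadjusted p was 0.000909, but it was not called by edgeR over all genes (adjusted p = 0.29), while DESeq2 did call it (-1.78, adjusted p = 0.0238), with 596 of all 14057 genes. EdgeR called 0 of 30 members, against 0.0142% of all genes higher and 0.0285% lower, and 1 member had an unadjusted p under 0.05, on the lower side (6.66% of all genes; 7.46% higher, with 0 members). Fitted levels were above demyelination for 12 of 30 members (51% of all genes), with a median of -0.33 against 0.03 over all genes. The replicate block gave a median of -0.60, and without the cells with a read of Ccr2, Ly6c2 or Fn1 it was 0.59, with 17 of 28 higher. All 7 fatty acid genes were on the lower side in remyelination, with a median of -0.72. Elovl5 was not called, at -1.20 ± 0.57 (adjusted p = 0.354), with overlapping mice. Nsdhl (2.10 ± 1.10) and the mevalonate kinase Mvk (-3.99 ± 2.22) had adjusted p of 0.421 and 0.468. The Mvk reads in remyelination came from 1 cell.

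The change in demyelination was also set against the change at day 3 in 1 fit of all 10 groups, as the difference of the differences from the untreated regions. The median of this difference over all genes was -1.44 on the log2 scale. Each test was against a difference of 0, not against that shift. No member was called by edgeR (0.157% of all genes were called higher and 0.266% lower) or by DESeq2 (3310 of all 26684 genes). With an unadjusted p under 0.05 there were 2 members, both higher (2.51% of all genes), and 0 lower (19.6%). The difference was above 0 for 14 of 31 members and 31.1% of all genes. Those with an unadjusted p under 0.05 were Elovl5, whose fitted change was higher in demyelination by 2.42 ± 0.90 (SE; adjusted p = 0.113), and Scd2, by 1.70 ± 0.78 (adjusted p = 0.191). Hmgcs1 had a difference of -2.95 ± 1.60 (adjusted p = 0.271) and Lss of 5.44 ± 3.13 (adjusted p = 0.302). Among the neighbours Abcg1 was called, with a difference of 4.35 ± 0.61 (adjusted p = 1.14e-05). Against a difference of 0, the tests showed for none of the 31 genes that the change in demyelination differed from that at day 3. Differences from the shift of all genes were not tested.

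Counted per cell, few of the 31 genes were read at once. Thinned to 20000 reads, a cell held reads of 3.99 ± 0.69 of them at day 3 (SD over 4 mice; 3.14 to 4.84), the highest group mean. Spinal cord followed at 3.28 ± 0.40, demyelination at 3.12 ± 0.31, cortex at 3.05 ± 0.11, day 14 at 2.94 ± 0.21, corpus callosum at 2.90 ± 0.07 and facial nucleus at 2.70 ± 0.16. Hippocampus was at 2.48 ± 0.39, remyelination at 2.13 ± 0.40 and cerebellum at 2.05 ± 0.23. Every day 3 mouse lay above every facial nucleus mouse, and the highest day 14 mouse, at 3.15, lay just above the lowest day 3 mouse, at 3.14. Cells with no read of any of the 31 made up 23.9% ± 7.32 in remyelination and 15.4% ± 5.16 in cerebellum, but 5.10% ± 2.60 to 12.9% ± 6.66 in the other 8 groups. At the deposited depth day 3 again had the highest mean, 5.87 ± 0.76, followed by demyelination at 4.83 ± 0.71. At that depth the median number of all genes detected per kept cell was also highest at day 3, at 2958.5. It was 2926 in corpus callosum, 2843.5 in cortex, 2751 in spinal cord, 2742 at day 14 and 2707.5 in hippocampus. Facial nucleus had 2659, cerebellum 2328, demyelination 2137 and remyelination 1517. The part of this number in the order of the groups was not tested.

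**Figure D5:**
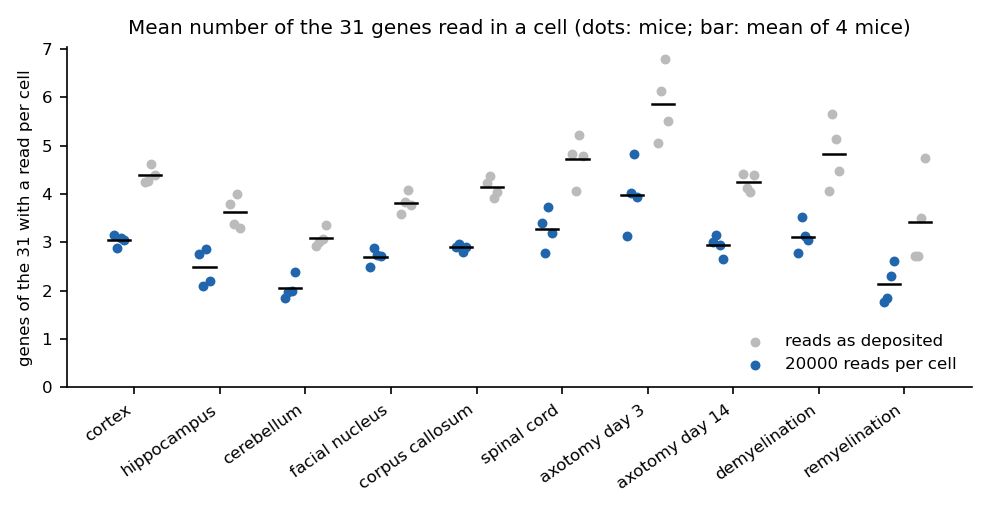
Mean number of the 31 genes with at least 1 read per cell (vertical axis) in each of 4 mice (dots) of the 10 groups, with each cell thinned to 20000 reads (blue) or at the deposited depth (grey), and the mean of the mice as a bar. Day 3 after axotomy has the highest mean, 3.99 thinned, and cerebellum the lowest, 2.05.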

How the data were processed

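Whole-number gene counts per well, as deposited by the authors, were used; per the submitters' processing notes these came from STAR 2.5.2b and featureCounts 1.5.1 on build GRCm38. Which annotation release was counted, and whether by strand, is not given in the sources used here. Members and lists were chosen with earlier results of these data known. Wells with at least 20000 gene counts, 500 genes, under 25% mitochondrial and under 50% spike-in counts were kept (plates and regions as described), and summed per mouse and group, since cells are not replicates. No doublet caller was run. Nothing in the labels says that replicate numbers mark shared mice, and the p-values measure the spread between these samples.

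EdgeR 4.0.16 (R 4.3.3) quasi-likelihood tests used TMM scaling, filterByExpr with minimum counts of 10 and 15 in total, fitted on all genes for the untreated regions, the axotomy groups with facial nucleus, and the cuprizone groups with corpus callosum. P-values were Benjamini-Hochberg adjusted over all genes, and an adjusted p under 0.05 was a call. The standard error is the log2 fold change divided by the square root of its F statistic. DESeq2 1.42.0 was an alternative, as were other scaling, no filters, equal weight per cell, a replicate block, each replicate left out, and cells left out by their reads. A further planned choice of cells to leave out is not reported here. The scripts were tested on simulated data. The text names members that were called, at most 12 per comparison, or else those with the lowest p until 4 were named, and up to 6 called neighbours. Of 48709 gene entries 48349 were found in GENCODE vM21. Each sum's depth limits its precision, and reads carry no molecular identifiers. The SD given with a share of cells is the spread over 4 mice.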

Additional observations from a re-analysis of the deposited data

Results flagged for a closer look

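Sets of 4 mice (a named gene in a group) numbered 59. In 8 of them the gap of 1 mouse to the others exceeded Dixon's 95% critical value for 4 samples. For normally distributed values chance gives about 1 in 20, but these levels are sparse, so the rates cannot be compared. A set with all mice but 1 at 0, as for Lss in corpus callosum and Mvk in remyelination, always exceeds that value. Elovl5 stood apart in cortex replicate 1, at 211.1 CPM, and in hippocampus replicate 3, at 101.5 CPM. Fads1 stood apart in facial nucleus replicate 2, at 94.0 CPM, and Hmgcs1 in day 14 replicate 2, at 20.0 CPM. Lss stood apart in corpus callosum replicate 3, at 0.994 CPM, in demyelination replicate 4, at 85.9 CPM, and in remyelination replicate 1, at 179.7 CPM. Mvk stood apart in remyelination replicate 1, at 3.66 CPM. The Mvk and Lss values in remyelination, the Lss value in demyelination and the Hmgcs1 value at day 14 came mostly from 1 cell each.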

How the results depend on the processing

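Scd2 in demyelination kept its call in all settings reported except without cells with a Ccr2, Ly6c2 or Fn1 read, where its log2 fold change was 2.12 (adjusted p = 0.108). Counts of called members moved without a filter on low counts. At day 3 against facial nucleus it was 1 (Msmo1, with 92 of all 38843 genes called). At day 14 against day 3 it was 1 (Hmgcs1, with 83 of 38843). Demyelination had 2 (Lss and Scd2, with 559 of 34540). Remyelination had 1 against corpus callosum (Lss, with 468 of 34540) and 1 against demyelination (Scd2, with 114 of 34540). Most Lss reads in demyelination and in remyelination were in 1 cell each. With DESeq2 the count of called members was 2 at day 14 against day 3 (234 of all 19319 genes). It was 2 in demyelination (1945 of 14057) and 1 in remyelination against demyelination (596 of 14057). Without monocyte-read cells it was 0 in demyelination (151 of 11653). The median of members for spinal cord against corpus callosum was 0.49 with equal weight for each cell, 0.47 without monocyte-read cells, 0.42 without Ccr2 or Ly6c2 reads (chosen after seeing the data), 0.36 with a replicate block, and 0.25 to 0.88 leaving out each replicate. With equal weight it was 0.48 at day 3 and -0.63 at day 14 against day 3, and -0.44 there without dividing-cell reads. Without monocyte-read cells it was -0.26 in demyelination and 0.59 in remyelination against demyelination. For remyelination against corpus callosum, leaving out each replicate gave 0.23 to 0.69, the highest without corpus callosum replicate 2. The sign turned for Lss in the difference of effects without monocyte-read cells (-1.23). The cause was not tested. Upper-quartile scaling moved the median of all genes in demyelination from -0.33 to -0.53, with 21 of 30 members then higher. Correlations of same-numbered replicates ran from 0.007 to 0.10 between untreated regions, all above 0, and from -0.05 to 0.05 in the injury comparisons. In no comparison was every pair over 0.1. The replicate block changed no member's call.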
